A study of Drosophila melanogaster with 9 samples.

Results

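Flies smell and taste with large families of genes, and 4 of them were followed here through the development of the disc that builds the antenna. All genes of the count table whose FlyBase symbol starts with *Or*, *Gr*, *Ir* or *Obp* and a number were taken, which gave 230 of 13676 genes. They comprise 59 odorant receptors (*Or*), 60 gustatory receptors (*Gr*), 60 ionotropic receptors (*Ir*) and 51 odorant-binding proteins (*Obp*). The members were chosen by name and not by their values. The eye-antennal disc of *Drosophila melanogaster* is the larval epithelium from which the compound eye, the ocelli, the antenna, the maxillary palp and the head cuticle form. Whole discs of the wildtype strain OregonR were used for RNA-seq in late L2 (72h AEL, hours after egg laying), mid L3 (96h AEL) and late L3 (120h AEL). Each stage has the libraries A, B and C, so 9 exist in total, and a library holds a pool of 120 to 130 discs in late L2, 80 to 90 in mid L3 or 40 to 50 in late L3. Larvae were of both sexes in late L2 but female afterwards, so sex and the first stage cannot be told apart. No library carried a mutation or a treatment. The antennal part was not separated from the eye part, and in such bulk RNA fewer cells of a type and less RNA per cell cannot be told apart.

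Insect odorant receptors are odor-gated ion channels that work together with the shared co-receptor Orco, a gene outside the naming rule. Gustatory receptors respond to sugars, bitter compounds or CO2. Ionotropic receptors, which descend from glutamate receptors, sense acids, amines, humidity and temperature, and their co-receptors include Ir8a, Ir25a and Ir76b. Odorant-binding proteins are small secreted carriers that support cells release into the fluid around sensory dendrites, and many of them are also made outside sense organs. The adult olfactory neurons are born from precursors that are selected in the antennal disc in late larval and early pupal life, and they switch on their receptor genes later, in the pupa.

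The libraries held 17675472 to 37305763 counts, and levels are given as counts-per-million (CPM), the counts of a gene relative to the library total scaled by TMM. At this depth 3 counts, taken as the floor of detection, corresponded to 0.0738 to 0.148 CPM, which covers counting error only. Libraries A and B of 72h AEL differed by no more than sampling noise, with a chi-square per gene of 1.02 against 36.21 to 488.19 in the other 8 pairs of libraries from the same stage. They were counted as 1 sample, so n = 2 at 72h AEL and n = 3 at each later stage. The study's methods call the 3 libraries of a stage biological replicates. The labels do not say what was kept separate between them, and p-values measure the spread between these samples. The labels mark the 120h AEL libraries as a reanalysis, and any batch behind that mark cannot be told apart from the stage. Markers of the disc were present throughout. The sum of 8 genes of the disc epithelium and antennal field was 416 to 422 CPM in late L2, 1050 to 1340 CPM in mid L3 and 1020 to 1110 CPM in late L3. In late L2 most of it came from the eye genes *ey*, *eya* and *so*, with stage means of 175, 127 and 67.6 CPM. The stage means of *Dll*, *hth*, *ss*, *dan* and *danr* were 2.51 to 19.3 CPM in late L2 and 36.6 to 147 CPM in late L3. Markers of other tissues were present too and moved with stage and library. All 7 fat body genes of the list were detected in every library, and their sum ranged from 5810 to 6360 CPM in late L2, from 2050 to 6980 CPM in mid L3 and from 142 to 4890 CPM in late L3. The 4 muscle genes of the table summed to 12400 to 16800 CPM, 1720 to 6820 CPM and 186 to 569 CPM at the same stages, and the 5 hemocyte genes to 353 to 1350 CPM, 20 to 439 CPM and 239 to 1500 CPM. The sums of the 5 salivary gland genes were 881 to 2210 CPM, 91.6 to 195 CPM and 208 to 246 CPM. Those of the 7 glial genes were 214 to 260 CPM, 210 to 243 CPM and 155 to 189 CPM. The 4 tracheal genes had 1750 to 1790 CPM, 1120 to 1360 CPM and 878 to 1040 CPM. Genes of 1 list could go opposite ways. As stage means *ng1* fell from 1540 to 129 and 0.905 CPM, nearly all of the salivary gland sum at the first 2 stages. *Sgs3*, *Sgs5*, *Sgs7* and *Sgs8* rose from at most 1.15 CPM in late L2 to 24.1 to 84.4 CPM in late L3. Among glial genes *Gs2* fell from 99.2 to 15.7 CPM and *repo* rose from 9.49 to 18.5 CPM.

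Few genes of the receptor families were expressed in the disc, while 24 of the 51 odorant-binding genes were. A gene was called expressed when every sample of at least 1 stage reached 1 CPM, silent when no library held more than 3 counts, and trace otherwise. Of the 230 members 33 were expressed (14.3%), against 70.0% of all genes of the table, and 37 were silent (16.1%), against 7.77% of all genes. The remaining 160 members were trace genes. Only 9 of the 179 receptor genes were expressed (5.03%), namely 2 of 59 *Or*, 2 of 60 *Gr* and 5 of 60 *Ir*. Among the odorant-binding genes 24 of 51 were expressed (47.1%). Of all genes within the coding length range of the *Or*, *Gr*, *Ir* and *Obp* genes 69.6%, 70.7%, 76.0% and 60.2% were expressed. The median over the members of the highest count in any library was 7 for *Or*, 6 for *Gr*, 7 for *Ir* and 44 for *Obp*, against 776 for all genes. Summed over a family, a library held 25.6 to 68.0 CPM of *Or*, 7.41 to 15.8 CPM of *Gr*, 38.8 to 79.0 CPM of *Ir* and 536 to 2010 CPM of *Obp*. The count of expressed members moved with the level asked for, to 54 at 0.5 CPM and 24 at 2 CPM. At 0.5 CPM it held 6 *Or*, 7 *Gr*, 11 *Ir* and 30 *Obp*.

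**Figure D1:**
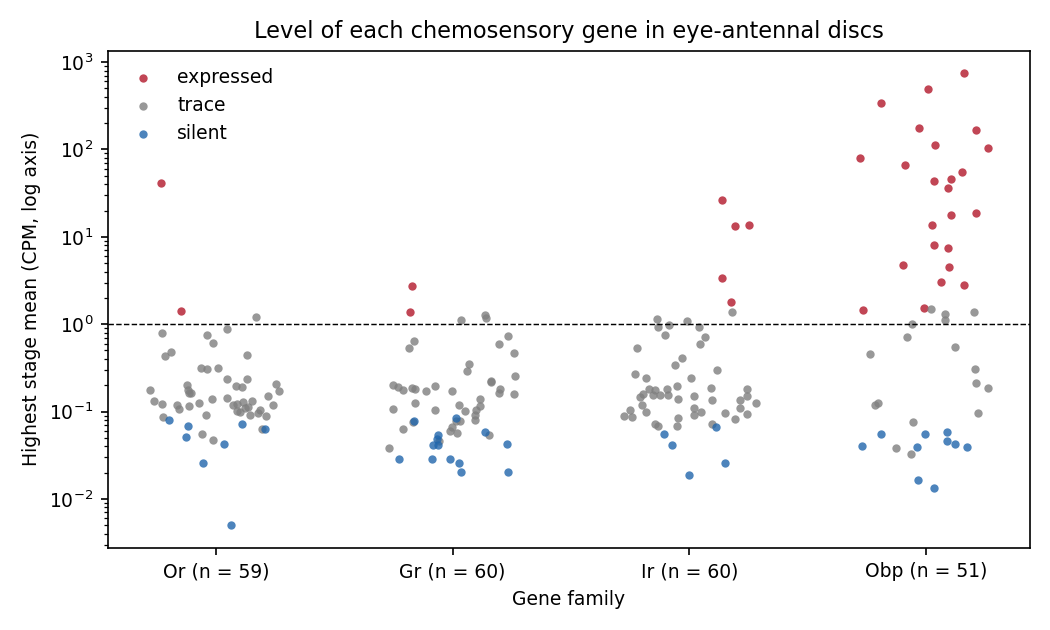
Each point is 1 of the 230 chemosensory genes, placed by family on the x axis and by its highest stage mean in CPM on a log y axis, with the 1 gene without any count drawn at the bottom. Red, grey and blue points are the 33 expressed, 160 trace and 37 silent members and the dashed line marks 1 CPM. Nearly all receptor genes lie under the line, while the *Obp* genes spread from near 0 to 743 CPM.

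The silent members were spread over all 4 families, with 8 *Or* (13.6%), 14 *Gr* (23.3%), 5 *Ir* (8.33%) and 10 *Obp* (19.6%). Of all genes within the coding length range of these families 4.04%, 3.67%, 1.27% and 14.9% were silent. The silent odorant receptors were *Or23a*, *Or33a*, *Or42b*, *Or49b*, *Or59b*, *Or69a*, *Or85d* and *Or98b*, and 1 of the *Or* genes had no count in any library. *Or42b* and *Or59b* are receptors of well studied antennal neurons that respond to food odors. The silent gustatory receptors included *Gr64b* and *Gr64c*, which belong to the sugar receptor group. The silent ionotropic receptors were *Ir20a*, *Ir67b*, *Ir67c*, *Ir84a* and *Ir94a*, of which *Ir84a* is the antennal receptor for phenylacetic acid that promotes male courtship. The silent odorant-binding genes were *Obp19a*, *Obp19b*, *Obp19c*, *Obp22a*, *Obp51a*, *Obp56g*, *Obp57c*, *Obp57e*, *Obp83a* and *Obp83b*. *Obp83a* and *Obp83b* encode abundant carriers of the adult antenna.

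Lists of receptors with a known place of action were counted as well. Of 25 odorant receptors of the larval olfactory organ 1 was expressed, and of 7 receptors of the maxillary palp none. Of 9 sugar receptors and 2 CO2 receptors none was expressed, and of 5 receptors found in most bitter neurons, 1 (*Gr32a*). Of 17 ionotropic receptors of the antenna 4 were expressed. The co-receptors *Ir25a*, *Ir8a*, *Ir76b* and *Orco* stayed low. *Ir25a*, the most widely used of them, had 1.86, 1.87 and 0.289 CPM at 72h AEL, 0.221, 0.534 and 1.04 CPM at 96h AEL and 0.878, 0.593 and 0.402 CPM at 120h AEL. *Ir8a*, the co-receptor for acid sensing, had 0 to 7 counts in a library, and *Ir76b*, the co-receptor for amines and amino acids, had 1 to 30. *Orco* had 1.69, 1.68 and 0 CPM at 72h AEL, 0.0738, 1.03 and 0.839 CPM at 96h AEL and 0.255, 0.247 and 0.134 CPM at 120h AEL. The levels of *Ir25a* and *Orco* overlapped between all 3 stages.

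How many receptor genes had any count differed between stages and libraries. In 120h AEL replicate A 57 of 59 *Or*, 58 of 60 *Gr* and 60 of 60 *Ir* genes had at least 1 count, 175 of 179 receptors in all, against 76 to 143 in the other 8 libraries. That library also had a count for 13176 genes of the whole table, against 11585 to 12458 in the others. Without 120h AEL replicate A the number of silent members went from 37 to 72, of which 17 were *Or*, 25 *Gr*, 18 *Ir* and 12 *Obp*, and the number over all genes from 1063 to 1404. The number of expressed members was 33 with and without that library. What lay behind the broader detection in this library and stage was not tested.

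**Figure D2:**
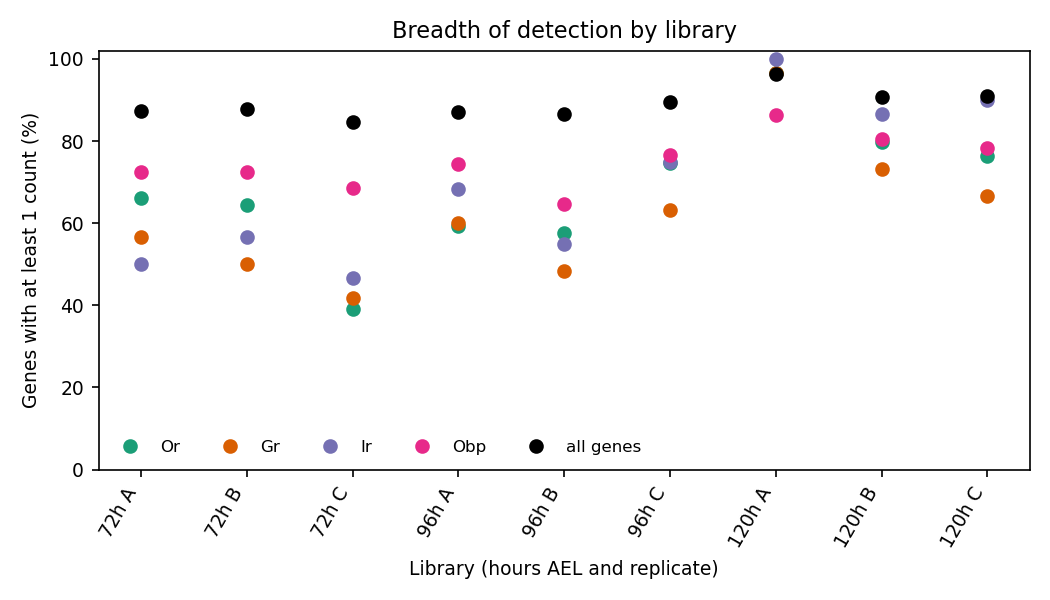
For each of the 9 libraries on the x axis the points give the percentage of genes with at least 1 count, for the 4 families and for all genes of the table. The 120h AEL replicate A reaches 96.3% of all genes and all 60 *Ir* genes, above every other library.

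Of the 9 expressed receptors 5 shared exon sequence with another gene. Reads were counted on the longest coding sequence of each gene without regard to strand, so reads of a gene and of one that overlaps it cannot be told apart. Positions are those of the BDGP6 annotation. *Or43b*, an antennal receptor for esters on 2R, was the most abundant receptor, with 26.4, 25.2 and 18.3 CPM at 72h AEL, 18.7, 21.8 and 34.8 CPM at 96h AEL and 32.2, 54.4 and 35.7 CPM at 120h AEL. It alone made up 68.8% to 82.9% of the *Or* counts of a library. Over 436 bases, 36.0% of its coding sequence, it overlaps exons of *Cul1* on the other strand, a ubiquitin ligase gene with 144 ± 21.0 (SD, n = 2), 212 ± 46.8 (n = 3) and 191 ± 21.6 CPM (n = 3) at the 3 stages. *Or43b* changed by 0.86 ± 0.31 (SE) on the log2 scale from 72h to 120h AEL, which did not pass edgeR's quasi-likelihood test (adjusted p = 0.0675). It passed with DESeq2 (adjusted p = 0.0248), with A and B of 72h AEL as separate samples (0.78), and with an offset for coding length (0.94). From 96h to 120h AEL it passed without 96h AEL replicate C (1.10). The second expressed odorant receptor, *Or2a* (X, 2246231 to 2247567), had 1.24 to 1.83 CPM at 72h AEL and 0.835 to 1.93 CPM later. No exon of another gene overlaps it.

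*Ir75d* (3L, 18908260 to 18911182), an antennal receptor for amines, had 10.7, 11.3 and 10.9 CPM at 72h AEL, 10.6, 10.5 and 14.9 CPM at 96h AEL and 11.1, 17.9 and 12.2 CPM at 120h AEL. Of its coding sequence 89.5% overlaps exons of *Prp6* and *COX6AL2*, for 1814 bases on the same strand. *Prp6*, a splicing factor gene, had 33.3, 71.2 and 52.8 CPM as stage means, and *COX6AL2* was at or under 0.113 CPM in every library. *Ir76a* (3L, 19799278 to 19803427), a receptor of an antennal neuron that responds to amines, was the highest of the ionotropic receptors. It had 19.4, 20.9 and 16.8 CPM at 72h AEL, 23.4, 21.1 and 23.7 CPM at 96h AEL and 21.4, 36.2 and 22.6 CPM at 120h AEL. The overlap with *CG14102* on the other strand covers 15.3% of it, and that gene was lower than *Ir76a* itself, at 3.70 to 9.63 CPM as stage means. Neither *Ir75d* nor *Ir76a* passed the test between any stages, with the largest log2 fold change at 0.50 ± 0.30 (SE) for *Ir76a* from 72h to 120h AEL (adjusted p = 0.203, edgeR). With library size alone in place of TMM, which moves all genes up, *Or43b* (1.46), *Ir76a* (1.10) and *Ir75d* (0.88) passed in that comparison.

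*Ir68a* (3L, 11232972 to 11236218) was the 1 receptor called after the filter on low counts. It encodes a receptor of moist-sensing neurons in the antennal sacculus, and no other gene's exon overlaps it. *Ir68a* had 4.72, 3.77 and 2.11 CPM at 72h AEL, 13, 14.7 and 12.5 CPM at 96h AEL and 7.70, 10.1 and 7.04 CPM at 120h AEL. The values of the 3 stages did not overlap, with the peak at mid L3. It rose by 2.02 ± 0.39 (SE) on the log2 scale from 72h to 96h AEL (adjusted p = 0.0191, edgeR), a 4.06-fold change, and lay 1.34 ± 0.44 above 72h AEL at 120h AEL (adjusted p = 0.0492). The second of these calls was lost with no filter (1.32, adjusted p = 0.0526), with the length offset (1.0) and in 5 of the 6 fits that left out 1 library, where the log2 fold change was 0.90 to 1.46 (it was kept without 72h AEL replicate A). The first was lost without 96h AEL replicate A (2.05) and without replicate B (1.98). The difference of 120h from 96h AEL was -0.62 ± 0.21 and did not pass (adjusted p = 0.105), except with DESeq2 (-0.64) and without 120h AEL replicate B (-0.79).

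The other 4 expressed receptors stayed within a few CPM. *Ir21a* (2L, 21823 to 25155), needed for cool sensing, had 1.69, 2.21 and 1.65 CPM at 72h AEL, then 0.320, 0.801 and 0.919 CPM, and 0.113, 0.297 and 0.0670 CPM at 120h AEL. These values decreased without overlap between stages. An antisense RNA gene, *asRNA:CR43609*, overlaps 82.5% of its coding sequence and was not analysed here. *Ir51b* on 2R lies within the span of *row* and had 1.47 to 2.44 CPM at 72h AEL, 0.839 to 6.12 CPM at 96h AEL and 0.791 to 1.53 CPM at 120h AEL, which overlapped, and from 96h to 120h AEL it passed the test without 96h AEL replicate C (-1.95). *Gr32a* (2L, 11114014 to 11115823), a receptor of bitter neurons that also inhibits courtship between males, had 1.98 to 2.12 CPM at 72h AEL, 0.634 to 1.55 CPM at 96h AEL and 1.07 to 4.30 CPM at 120h AEL. *CG6230* overlaps 6.93% of it on the other strand. *Gr47b* on 2R, with no overlap, had 0.765 to 1.60 CPM over all libraries. Over the receptor families, 1 of 7 *Or* genes with an exon overlap was expressed against 1 of 52 without, 1 of 11 against 1 of 49 *Gr* genes, and 3 of 7 against 2 of 53 *Ir* genes. The part of these overlaps in the counts was not tested.

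The odorant-binding genes spanned a wide range of levels, and the leading gene changed with the stage. Per length, as counts per coding length scaled to the same total in each library (TPM), *Obp56a* led at 72h AEL with a mean of 991, ahead of *Obp99c* with 220 and *Obp44a* with 216. At 96h AEL *Obp56a* had 552 and *Obp99b* 444, and at 120h AEL *Obp99b* had 1200 and *Obp99a* 821. In the same unit the highest receptor, *Or43b*, reached 34.1 at 120h AEL. The top *Obp* gene of a library took 27.1% to 55.1% of the family's counts. It was *Obp56a* in all libraries of 72h AEL and in 96h AEL replicates A and B, *Obp99b* in 96h AEL replicate C and 120h AEL replicates A and C, and *Obp99a* in 120h AEL replicate B.

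**Figure D3:**
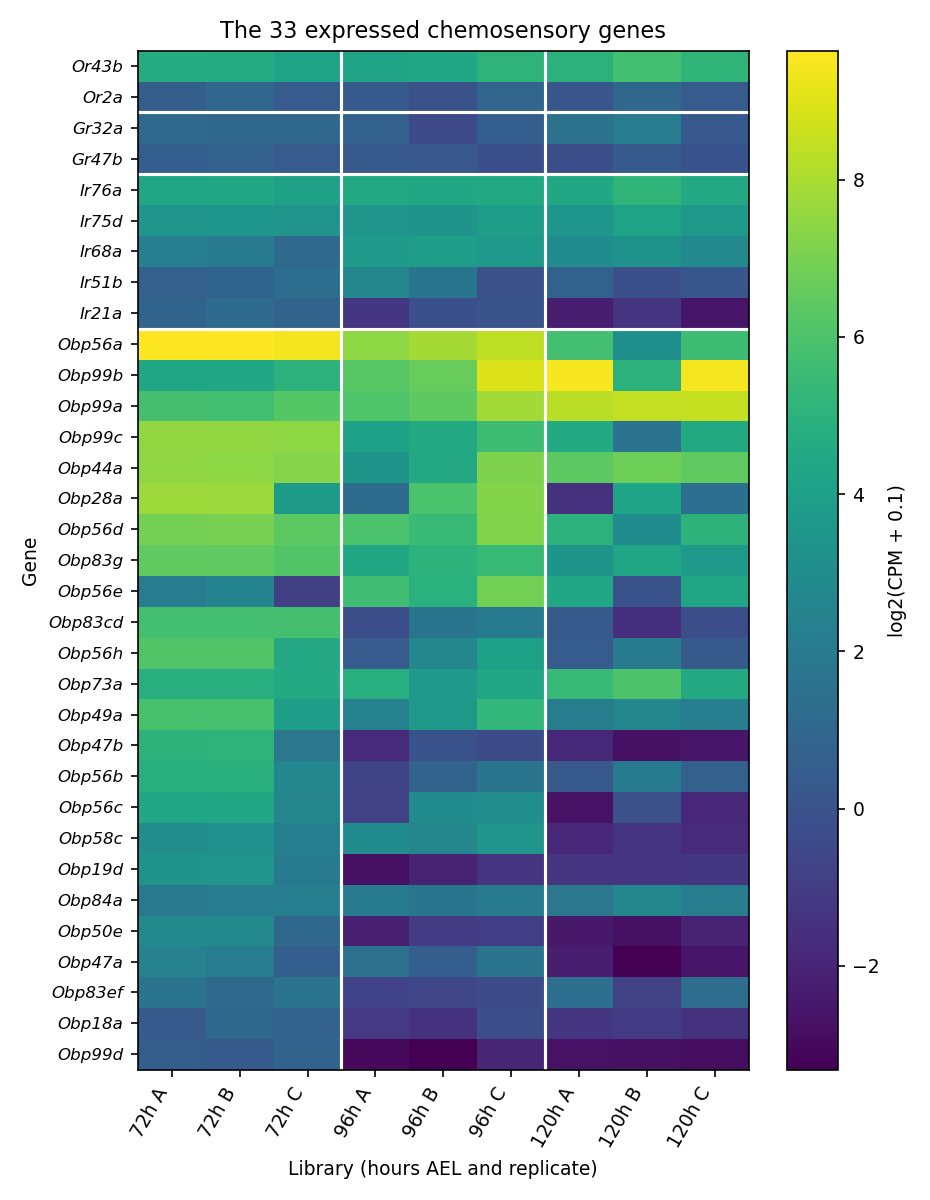
Rows are the 33 expressed members, grouped by family (*Or*, *Gr*, *Ir*, *Obp* from the top) and ordered by level, and columns are the 9 libraries, with colour giving log2(CPM + 0.1). Most *Obp* rows are brightest at 72h AEL, *Obp99a* and *Obp99b* are brightest at 120h AEL, and 72h AEL replicate C, 96h AEL replicate C and 120h AEL replicate B stand apart from their stage in several rows.

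From late L2 to mid L3 more odorant-binding genes decreased than increased. After a filter on low counts 26 members were tested among 8904 genes, 21 of them *Obp*, 4 *Ir*, 1 *Or* and no *Gr*. A member passed only where some sample was high, so the counts over tested members do not describe the families as a whole. In edgeR's test, with the adjusted p-value required to be below 0.05, 2 members were higher at 96h AEL, *Ir68a* and *Obp56e*, against 19.4% of all tested genes, and 8 members, all *Obp*, were lower, against 23.0%. Among tested genes as short as the *Obp* genes 34.6% were lower, and their median log2 fold change was -0.54, against -0.04 over all tested genes and -1.34 over the 21 *Obp* genes. Set against short genes, the 8 of 21 *Obp* genes are near the background.

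*Obp19d*, a binding protein of olfactory and gustatory organs on X, fell from 10.5, 10.8 and 4.09 CPM to 0.0492, 0.134 and 0.280 CPM, a log2 fold change of -5.66 ± 0.90 (SE, adjusted p = 0.0127, edgeR). *Obp83cd* (3R, 6108134 to 6109733) had 53.7, 54.7 and 55.7 CPM at 72h AEL and 0.762, 3.14 and 3.80 CPM at 96h AEL, a change of -4.48 ± 0.68 (adjusted p = 0.0119). The nearby *Obp83g* (3R, 6111671 to 6112302) fell less, from 88.7, 88.4 and 70.0 CPM to 20.7, 33.4 and 42.8 CPM (-1.34 ± 0.34, adjusted p = 0.0322). In these genes, and in the others that fell, named below, the values of 72h and 96h AEL did not overlap. How often this held over all genes was not counted. *Obp99c* fell from 185, 186 and 171 CPM to 16.8, 23.3 and 48.9 CPM (-2.63 ± 0.49, adjusted p = 0.0178). *Obp56a* on 2R, the most abundant member at this stage, fell from 799, 790 and 692 CPM to 174, 234 and 334 CPM (-1.63 ± 0.32, adjusted p = 0.0198). The remaining genes that fell were *Obp47b* (-5.04 ± 1.16), *Obp50e* (-3.88 ± 0.89) and *Obp56b* (-3.39 ± 0.97).

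*Obp56e* rose against this trend, from 4.46, 5.68 and 0.454 CPM to 50.3, 31.0 and 117 CPM, by 4.48 ± 1.22 (SE) on the log2 scale (adjusted p = 0.0383, edgeR). An antisense RNA gene, *asRNA:CR44509*, overlaps 99.5% of its coding sequence and was not analysed here. *Obp99b* moved the same way, from 20.3, 21.5 and 32.5 CPM to 76.8, 97.6 and 492 CPM, and did not pass (3.03 ± 1.02, adjusted p = 0.0626). It passed with DESeq2 (adjusted p = 0.000951), library size alone, the length offset, A and B of 72h AEL as separate samples, and without 96h AEL replicate C (1.69). None of the 10 calls was kept in all fits that left out 1 library. Without 96h AEL replicate B 0 members were higher and 0 lower, while the calls over all genes dropped to 130 higher and 514 lower. Without 96h AEL replicate A 0 were higher and 5 lower, against 543 and 1086 of 9029 tested genes. Scaling by library size alone in place of TMM put the median over all tested genes at 0.44 on the log2 scale and gave 3182 genes higher and 1279 lower, against 1726 and 2049 with TMM. Under that scaling 4 members were higher and 7 lower, and *Obp83g* was lost (-0.85).

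From mid L3 to late L3 2 of 20 tested members were lower and 0 higher by edgeR, against 6.29% lower and 8.27% higher of 8102 tested genes. At an unadjusted p under 0.05 in edgeR 3 members were higher (*Obp73a*, *Obp99a* and *Or43b*) and 7 lower. All genes were not counted at that limit, so these numbers have no background. DESeq2 called 1 member higher (*Obp99a*) and 7 lower, against 915 higher and 920 lower of 8080 genes. *Obp58c* on 2R went from 7.42, 6.41 and 10.6 CPM at 96h AEL to 0.170, 0.297 and 0.201 CPM at 120h AEL. Its log2 fold change was -5.13 ± 0.45 (SE, adjusted p = 0.00147, edgeR), and the call was kept whichever single library was left out (-5.37 to -4.88). Its neighbors *Obp58b* and *Obp58d* went the same way at lower levels. *Obp58b* had 18, 19 and 34 counts in mid L3 and no count in late L3, at least 5.48-fold lower against a floor of 3 counts per library. *Obp58d* had 32, 25 and 44 counts in mid L3 and 0, 0 and 1 in late L3. *Obp56a* fell further, from 174, 234 and 334 CPM to 53.5, 8.65 and 49.1 CPM (-2.67 ± 0.66, adjusted p = 0.0411), but this call was kept in only 1 of the 6 leave-out fits, the one without 120h AEL replicate B, and was lost in the other fits at -3.05 to -2.36. Without 96h AEL replicate C 3 members were higher (*Obp44a*, *Obp99a* and *Or43b*), against 794 of 7982 tested genes. Without 96h AEL replicate A 4 were lower, against 348 of 8019 genes. Without 96h AEL replicate B, 120h AEL replicate A or 120h AEL replicate C 1 was lower, against 262, 264 and 207 over all tested genes.

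Between the ends of the series 15 of 25 tested members were lower at 120h AEL and 2 higher, against 29.1% lower and 24.0% higher of 9041 tested genes. All 15 were among the 21 tested *Obp* genes, whose median log2 fold change was -3.43, against -0.45 over tested genes of *Obp* length, of which 40.9% were lower, and -0.01 over all tested genes. The comparisons share their 72h and 120h AEL libraries with those above. The largest falls were those of *Obp47b* (-7.51 ± 1.23 SE, adjusted p = 0.00708), *Obp83cd* (-6.19 ± 0.57, adjusted p = 0.0013) and *Obp50e* (-5.61 ± 0.85, adjusted p = 0.00551), all by edgeR. *Obp47b* had 33.1, 34.3 and 3.39 CPM at 72h AEL and 0.170, 0.0495 and 0.0670 CPM at 120h AEL. Its whole coding sequence overlaps exons of *CG7741* on the other strand, which had 43.9, 54.8 and 47.4 CPM as stage means. *Obp50e* had 7.28, 6.86 and 1.98 CPM and then 0.0850, 0.0495 and 0.134 CPM. *Obp49a*, which in taste sensilla carries bitter compounds to the sugar receptor neurons, fell from 57.6, 57.6 and 15.5 CPM to 4.39, 5.93 and 4.56 CPM (-2.93 ± 0.58, adjusted p = 0.012). The others that fell were *Obp19d*, *Obp44a*, *Obp47a*, *Obp56a*, *Obp56b*, *Obp56c*, *Obp56d*, *Obp56h*, *Obp58c*, *Obp83g* and *Obp99c*, with log2 fold changes from -5.47 (*Obp47a*) to -0.84 (*Obp44a*).

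*Obp99a* (3R, 29671657 to 29672334) was the 1 odorant-binding gene called higher at 120h than at 72h AEL after the filter. It had 57.0, 52.6 and 74.2 CPM at 72h AEL, 66.4, 86.5 and 230 CPM at 96h AEL and 311, 352 and 362 CPM at 120h AEL. The 120h AEL values lay above all others, and the rise from 72h to 120h AEL was 2.38 ± 0.21 (SE) on the log2 scale, 5.22-fold (adjusted p = 0.00109, edgeR). The call for *Obp99a* was kept whichever single library was left out, at 2.36 to 2.57. *Obp99b*, at 3R 29716254 to 29716896 with *Obp99c* and *Obp99d* in between, is known from the fat body of the adult head. It had 734, 31.7 and 716 CPM at 120h AEL. Its difference from 72h AEL did not pass by a narrow margin (4.19 ± 1.41, adjusted p = 0.0533). It passed with DESeq2 (adjusted p = 0.00424), no filter, library size alone, 1 fit for all stages, A and B as separate samples, and without 120h AEL replicate B (4.77), with adjusted p from 0.00252 to 0.0482 over these. Of the 17 calls 10 were kept whichever library was left out, namely *Obp19d*, *Obp47b*, *Obp49a*, *Obp50e*, *Obp56a*, *Obp56h*, *Obp58c*, *Obp83cd*, *Obp83g* and *Obp99a*. Without 120h AEL replicate C 9 members were lower. Without 72h AEL replicate B, 72h AEL replicate C, 120h AEL replicate A or 120h AEL replicate C 1 was higher. With library size alone the median over all tested genes was 0.58, 4065 genes were higher and 1651 lower (2167 and 2627 with TMM), and 7 members were higher and 13 lower. Relative to TMM *Obp44a* (-0.25) and *Obp56d* (-1.48) were lost.

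**Figure D4:**
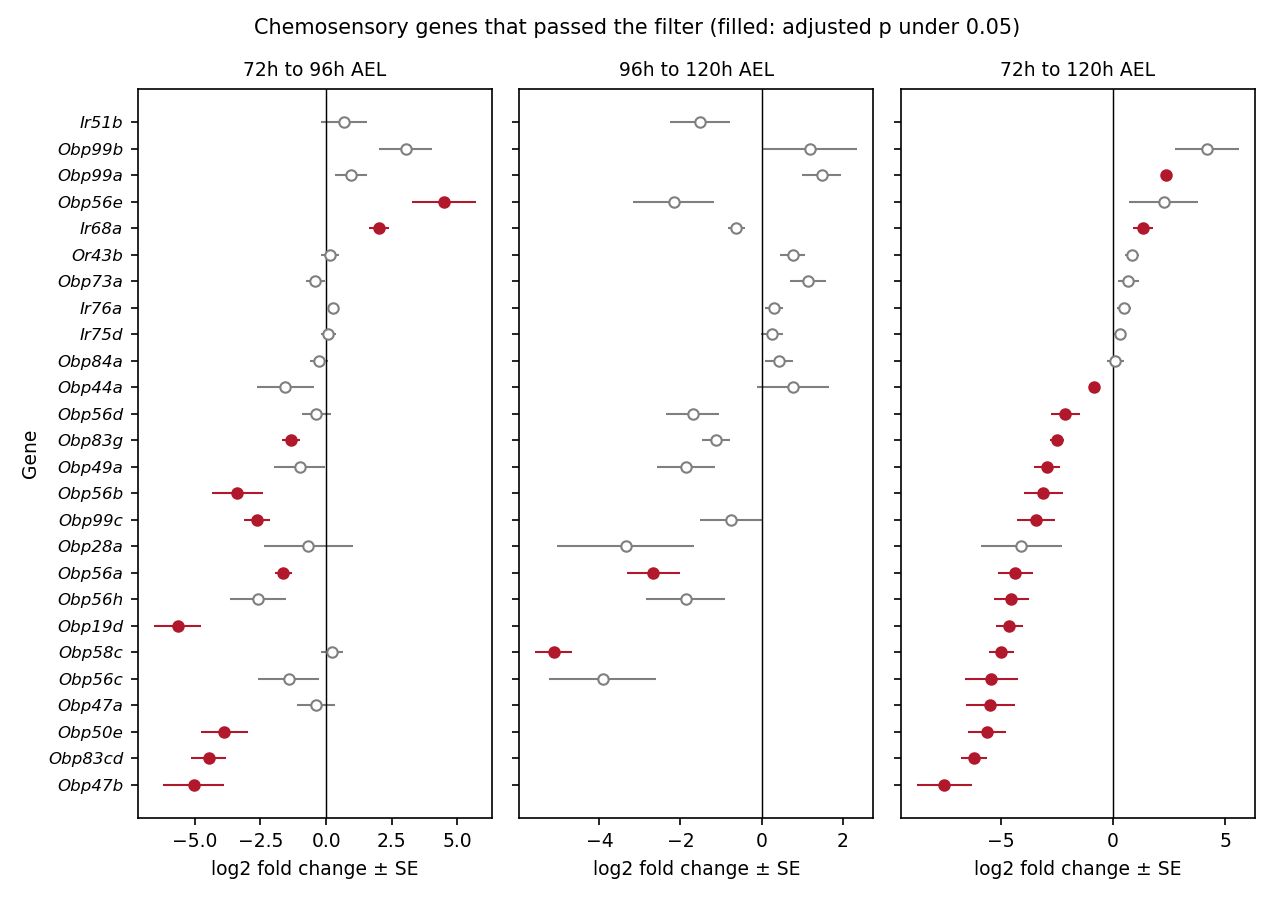
Points are log2 fold changes with SE from edgeR for the members that passed the filter, in 1 panel for each comparison, with x axes of different range and genes on the y axis. Filled red points have an adjusted p-value under 0.05, and most of them lie left of 0, while *Obp99a*, *Ir68a* and *Obp56e* lie right of it.

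Without a filter nearly all members entered the test, and the calls fell on *Obp* and *Ir* genes and 1 *Gr* gene. From 72h to 96h AEL 2 members were higher and 10 lower of 211 tested, against 12.5% and 15.8% of all genes. From 96h to 120h AEL 1 was higher and 6 lower of 228, against 6.04% and 4.58%. From 72h to 120h AEL 9 were higher and 24 lower of 229, against 16.8% and 20.9%. No *Or* gene was called in any comparison, and *Gr28b*, a receptor known for warmth sensing, was the 1 *Gr* gene, with 36, 36 and 19 counts in late L2 and 5, 3 and 2 in late L3 (-3.27 ± 0.62 SE, adjusted p = 0.00927, edgeR). *Ir76b* and *Ir21a* were lower at 120h AEL as well. Of the 9 that were higher at 120h AEL, *Obp99a* and *Obp99b* (4.2, adjusted p = 0.0482) had high counts, while *Ir48c*, *Ir75a*, *Ir85a*, *Ir94c*, *Ir94g*, *Obp56i* and *Obp69a* were trace genes. Every 120h AEL library had a count for more receptors, and for more genes of the table, than any earlier library. The part of this in the calls of trace genes was not tested. *Ir94g* had 0 counts in every library of late L2 and mid L3 and 12, 5 and 4 in late L3, at least 2-fold higher than at 96h AEL. *Obp69a*, a carrier of the adult antenna, had 0 counts in late L2, 11, 0 and 8 in mid L3 and 37, 53 and 25 in late L3, at least 11.6-fold higher than at 72h AEL. It reached 1.05, 2.62 and 0.838 CPM and so stayed just under the rule for expression. At the other end *Obp99d* had 30, 31 and 40 counts in late L2 and 2, 1 and 1 in late L3.

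Genes of 1 region did not all follow each other. The *Obp56* genes stand in a row on 2R, where *Obp56a*, *Obp56b*, *Obp56c* and *Obp56d* were all lower at 120h AEL than at 72h AEL. After them *Obp56e* was higher at 96h AEL, *Obp56f* stayed a trace gene, *Obp56g* was silent and *Obp56h* was lower at 120h AEL. On 3R *Obp83a* and *Obp83b* were silent. *Obp83cd*, which starts 131957 bases after *Obp83b*, and *Obp83ef* and *Obp83g* beside it were expressed at 72h AEL. The *Obp99* genes on 3R split as well. *Obp99a* rose and *Obp99c* fell between 72h and 120h AEL. The 4 *Obp99* genes and *Obp44a* belong to the odorant-binding proteins that lack a conserved pair of cysteines, and of the 6 such genes on the list 5 were expressed. Of 10 binding proteins known from adult antennal sensilla (*lush* included) 4 were expressed, namely *Obp19d*, *Obp28a*, *Obp56d* and *Obp84a*. Exons of *Dtwd2* on the other strand overlap 76.9% of the coding sequence of *Obp84a*. *Dtwd2* had the higher mean at each stage, with 10.3 CPM against 4.29 CPM for *Obp84a* at 72h AEL. The part of this overlap in the counts of *Obp84a* was not tested.

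Several *Obp* genes differed widely between the libraries of 1 stage, alongside markers of other tissues. In 120h AEL replicate B *Obp99b* had 31.7 CPM, compared with 734 and 716 CPM in the other libraries of late L3, and *Obp56e* 0.890 CPM against 20.8 and 20.4 CPM. *Obp99c* had 2.92 CPM against 24.0 and 23.6 CPM, *Obp56a* 8.65 CPM against 53.5 and 49.1 CPM, and *Obp56d* 7.76 CPM against 32.1 and 33.6 CPM. The fat body list summed to 142 CPM in that library against 4890 and 4400 CPM, the hemocyte list to 239 CPM against 1500 and 1370 CPM, and the muscle list to 186 CPM against 569 and 550 CPM. *Obp44a*, *Obp83g* and *Obp73a* were higher in replicate B and *Obp99a* lay between A and C, with 352 CPM for *Obp99a* against 311 and 362 CPM. *Obp28a*, a carrier of the adult antenna, ran the other way with 0.255, 18.2 and 2.58 CPM in A, B and C. Of the 15 expressed *Obp* genes with a mean of at least 1 CPM at this stage 6 were at least 3-fold lower in B (40.0%), against 3.40% of expressed genes. Genes higher in B were not counted, and the median ratio of A and C to B over the 15 was 0.797. Besides *Obp28a*, *Obp56b* (1.13, 3.91 and 1.47 CPM in A, B and C) and *Obp56h* (1.25, 3.91 and 1.14 CPM) were also higher in B. The libraries and the 3-fold limit were chosen after the values were seen, and the part of other tissue in these differences was not tested.

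**Figure D5:**
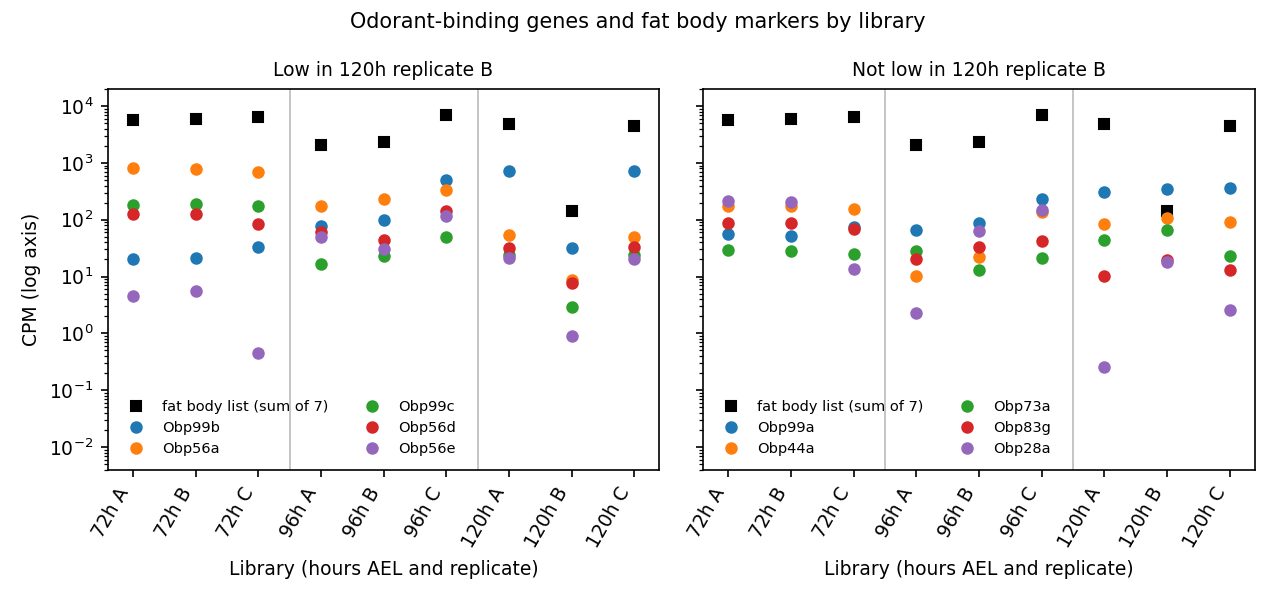
Points give CPM on a log y axis in each of the 9 libraries on the x axis, with the summed fat body list as black squares in both panels. In 120h AEL replicate B the list drops to 142 CPM, the 5 genes of the left panel drop with it, and *Obp99a*, *Obp44a*, *Obp73a*, *Obp83g* and *Obp28a* on the right do not.

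At 72h AEL replicate C stood apart. *Obp28a* had 214 and 207 CPM in A and B and 13.5 CPM in C, and *Obp47b* 33.1 and 34.3 CPM against 3.39 CPM. Of 24 expressed *Obp* genes 9 were at least 3-fold lower in C (37.5%), against 3.72% of expressed genes. The hemocyte list was 3.80 times as high in C as in A and B, the salivary gland list 0.399 times, and the fat body list 1.09 times. Nearly all of the salivary gland list was *ng1*, with 880 CPM in C against 2200 and 2210 CPM. At 96h AEL replicate C was high for *Obp44a*, with 10.4, 22.3 and 139 CPM, for *Obp99b* and for *Obp28a*, with 2.26, 63.6 and 150 CPM. Of 18 such *Obp* genes 6 were at least 3-fold higher in C than in A and B (33.3%), against 2.86% of expressed genes. There the fat body list was 3.16 times and the hemocyte list 4.57 times as high. For *Obp44a* a single library changed the calls. Its difference from 72h to 96h AEL was -1.56 ± 1.09 (SE, adjusted p = 0.277, edgeR) with all libraries and passed at -3.37 without 96h AEL replicate C, and its difference from 96h to 120h AEL passed at 2.63 without that library, against 0.77 ± 0.89 (adjusted p = 0.617) with it.

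Genes that act in setting up the antenna and its neurons were measured in the same libraries. The eye part lay in the same RNA, so the share of the antenna in their levels cannot be told. *ato*, a proneural gene of eye and antenna, had 15.2 to 25.8 CPM in late L2 and 127 to 174 CPM in late L3, and *lz*, a prepattern gene of olfactory sensilla, had 0.419 to 1.24 CPM and 66.7 to 80.5 CPM. From 72h to 120h AEL *ato* rose by 2.85 ± 0.31 (SE) and *lz* by 6.52 ± 0.51 on the log2 scale (adjusted p = 0.00217 and 0.000821, edgeR). *ss* and *Dll*, which specify antennal identity, rose by 3.87 ± 0.40 and 2.36 ± 0.20 (adjusted p = 0.00186 and 0.00106). *amos*, the proneural gene of most other olfactory sensilla, had at most 0.04 CPM in any library, and *acj6*, a regulator of receptor choice, at most 0.372 CPM. Among accessory genes *Os-C*, which is known from the adult antenna, had 0 counts at 72h AEL and 6.43, 10.3 and 6.67 CPM at 120h AEL, while *lush*, the carrier for a male pheromone, stayed at or under 0.340 CPM. Others of that list had lower means at 120h than at 72h AEL, *Snmp2* with 3.16 against 7.38 CPM. *Orco*, *Snmp1*, *a10* and *ppk23* did so too, at or under 1.77 CPM in every library. *ppk29* had the highest mean of the list at each stage, 8.20 CPM at 72h AEL and 18.4 CPM at 120h AEL. *CheA75a*, *CheB42a* and *ppk25* stayed at or under 0.221 CPM. The 15 genes of the olfactory fate list summed to 160 to 232 CPM, 1050 to 1200 CPM and 884 to 1010 CPM at the 3 stages, and the 11 accessory genes found in the table to 17.7 to 20.3 CPM, 20.3 to 24.1 CPM and 24.3 to 42.4 CPM. In the first of these lists *dac*, which the study names as a retinal determination gene, alone had 401 to 590 CPM in mid L3. The 5 neuron markers summed to 15.0 to 20.5 CPM, 39.2 to 46.3 CPM and 121 to 202 CPM at the 3 stages. *Appl* alone made up 81 to 160 CPM of the last, and *Syt1* did not pass from 72h to 120h AEL (-0.09 ± 0.40 SE, adjusted p = 0.855, edgeR).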

How the data were processed

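Eye-antennal discs of OregonR were sequenced at 72h, 96h and 120h AEL (9 libraries). The authors used Bowtie2 to place reads of 50 bp on coding sequences from FlyBase r5.55, 1 (the longest) per gene, and SAMtools 0.1.19 to count them, without regard to strand. The deposited values are raw counts per gene, with the coding length. A second deposited file assigns 8836 genes to 13 clusters and was not used for results, although 25 members are in it. Of 13676 genes 13406 were named and placed with BDGP6, 270 were not. All 230 members were placed, and 225 have the coding length of BDGP6. The members and gene lists were chosen with earlier results of these data known.

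Total counts were 17675472 to 37305763 per library. Libraries of 1 stage with a chi-square per gene under 1.5 were summed. Counts were scaled by TMM to CPM, and stage means average independent samples. Genes at or under the HTSFilter threshold (137.5, 153 and 137.5 normalized counts for 72h to 96h, 96h to 120h and 72h to 120h AEL) were left out. Each pair of stages was fitted alone with edgeR 4.0.16 (quasi-likelihood, two-sided, R 4.3.3), with Benjamini-Hochberg adjustment over all tested genes. The SE is the log2 fold change divided by the root of the F statistic. Bounds use 3 counts per library. The procedure was tested on simulated data. Python 3.11.15, pandas 2.3.3, numpy 2.4.6 and matplotlib 3.10.9 were used. Named are expressed or tested members, those of highest level, co-receptors and accessory genes; *Obp58b*, *Obp58d*, members called without the filter and the silent members were added after their values were seen. Alternatives were DESeq2 1.42.0, its size factors, library size, other filters, 1 fit for all stages, a replicate block, a length offset, other limits and each library left out.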

Additional observations from a re-analysis of the deposited data

How the results depend on the processing

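No call changed direction under any alternative run. The calls over all genes moved as well. Leaving out 1 library other than 72h AEL replicate C gave 130 to 2006 genes higher and 514 to 2037 lower from 72h to 96h AEL. From 96h to 120h AEL it gave 314 to 794 and 207 to 575, and from 72h to 120h AEL 1045 to 2434 and 1519 to 2641. With filterByExpr 878 genes were higher and 650 lower from 96h to 120h AEL, and 2368 and 2909 from 72h to 120h AEL. From 72h to 96h AEL (2 higher, 8 lower) library size alone gave 4 higher, and fits that left out 1 library gave 0 to 2 higher and 0 to 8 lower. From 96h to 120h AEL (0 higher, 2 lower) 1 member was higher with DESeq2, with no filter and with the length offset, and 0 to 3 with 1 library left out. There DESeq2 gave 7 lower, no filter 6, filterByExpr 6, library size alone 1, and leaving out 1 library 1 to 4. From 72h to 120h AEL (2 higher, 15 lower) DESeq2, filterByExpr, the replicate block and A and B of 72h AEL as separate samples each gave 4 higher, library size alone 7, no filter 9, and leaving out 1 library 1 to 2, while no filter gave 24 lower and leaving out 1 library 9 to 15. The 33 expressed members became 54 at 0.5 CPM and 33 to 37 with 1 library left out, and the 37 silent members became 140 at a limit of 10 counts, 1 at 0 counts and 37 to 72 with 1 library left out.

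Whether the replicate letters pair the samples was not settled, and the main fits had no replicate block. Same-letter correlations of deviations ran from -0.426 to 0.181 over all stages. At 72h AEL A and B were counted as 1 sample, so the letters of that stage cannot test a pairing. Between 96h and 120h AEL each library correlated best with its own letter (0.149, 0.125 and 0.097), while pairs of unlike letters had -0.18 to -0.014. The replicate block gave 2 higher and 7 lower, 0 and 3, and 4 and 16 in the 3 comparisons. Over all genes it gave 1505 and 1835, 476 and 373, and 2751 and 2933. These fits counted A and B of 72h AEL as separate samples, so the block was not their only change. The block fits lost *Obp56b* (-3.74) and *Obp56e* (4.19) and gained *Obp99b* (2.62) from 72h to 96h AEL. From 96h to 120h AEL they lost *Obp56a* (-2.96) and gained *Obp56c* (-3.89) and *Obp56d* (-1.77). From 72h to 120h AEL they gained *Obp28a* (-4.47), *Obp99b* (3.59) and *Or43b* (0.77). The gains of *Obp99b* and *Or43b* also came without a block when A and B were separate samples, so they cannot be credited to pairing. Without 72h AEL replicate C 1 sample is left at that stage and is assumed to vary like the others. The 2 samples at 72h AEL and 3 counts as the floor limit what can be seen of genes under about 1 CPM. Whether near-identical copies among members share reads was not tested.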
